A study of Homo sapiens with 6 samples.

Results

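E2 ubiquitin-conjugating enzymes were followed in U2OS, an established human osteosarcoma line, under 2 conditions, each lasting 4 h: NMS-873 at 5 µM, and the solvent alone, DMSO at 0.05%. NMS-873, dissolved in DMSO, is an inhibitor of VCP (p97), the ATPase that extracts ubiquitylated proteins from membranes and complexes. Polyadenylated RNA was sequenced from 3 NMS-873 libraries and 3 DMSO libraries. The labels name no other modification of the cells. Separate cultures are not stated for the 3 libraries of a condition, so p-values reflect the spread among these samples alone, and that spread may be technical. The enzymes were taken by name: 35 of 57820 genes had a symbol of the form UBE2 followed by a letter and an optional number, and the 32 of these that averaged 50 normalised counts or more are the members described here. The lowest of the 32 was UBE2V1, at a mean of 50.7 normalised counts. The 3 left out were UBE2L4, with 2 reads in the 6 libraries, and UBE2U and UBE2L2, with no read in any (a count of 0 allows up to 3 reads). A normalised count is the number of reads of a gene divided by a size factor that the authors took from spike-in RNA.

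An E2 enzyme takes activated ubiquitin from an E1 enzyme onto a cysteine and, held by an E3 ligase that chooses the substrate, passes it on, so that the pairing of E2 and E3 sets where ubiquitin goes and which kind of chain is built. At the endoplasmic reticulum (ER), UBE2J1 and UBE2J2 are anchored in the membrane by a tail, and UBE2G2 is soluble but is held at the membrane by partner proteins such as AUP1. Together they serve ER-associated degradation, the route in which VCP pulls misfolded proteins out of the membrane for the proteasome. UBE2C and UBE2S work in mitosis with the anaphase-promoting complex (APC/C), UBE2C starting ubiquitin chains and UBE2S extending them. A few family members carry other modifiers in place of ubiquitin: UBE2M and UBE2F carry NEDD8, and UBE2L6 carries ISG15.

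The 6 libraries held 21132311 to 22488952 reads in genes. NMS-873 replicate 1 stood apart from its group. Its reads differed from those of NMS-873 replicates 2 and 3 with a chi-square per degree of freedom of 6.84 and 7.27, against 1.72 between those replicates and 1.47 to 3.33 between DMSO libraries. It was also the lowest NMS-873 library for 27 of the 32 members (84.4%) and for 57.0% of all genes tested. Being lowest was not particular to it: DMSO replicate 2 was the lowest DMSO library for 22 members (68.8%) and 55.0% of all genes. The part of NMS-873 replicate 1 in the results was not tested. Counts of called members without NMS-873 replicate 1 are given beside the main counts. VCP itself was at 21095 ± 174 normalised counts with NMS-873 and 18070.3 ± 662 with DMSO (mean ± SD, n = 3 libraries each, as for all means below), a log2 fold change of 0.22 (SE 0.0617, adjusted p = 0.00122).

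The E2 enzymes did not move as a block. Of the 32 members, 4 rose with NMS-873 (12.5%), where 14.9% of the 14889 genes tested were called higher, and 13 fell (40.6%), where 33.0% of all genes were called lower. In either direction 17 members (53.1%) and 47.9% of all genes were called, and among genes with a mean of at least 50, like the members, 17.3% were called higher and 35.4% lower. A gene was called at an adjusted p under 0.05 in limma, on log2(normalised count + 1), adjusted over all genes tested. The 4 that rose were UBE2J1, UBE2W, UBE2B and UBE2D1. The 13 that fell were UBE2Q1, UBE2G2, UBE2E3, UBE2Z, UBE2G1, UBE2D4, UBE2C, UBE2R2, UBE2L3, UBE2A, UBE2Q2, UBE2N and UBE2V2. Changes were small apart from that of UBE2J1: it was the only member both called and changed at least 1.5-fold, as were 12.1% of all genes tested. The members' median log2 fold change was -0.08, beside -0.10 over all genes tested, and 16 members lay below that median gene. The members' median depended on single libraries. It was -0.01 without NMS-873 replicate 1, beside -0.08 over all genes, and -0.13 without NMS-873 replicate 3, beside -0.12. The 3 NMS-873 libraries lay above all 3 DMSO libraries for 5 members and below them for 13, against 16.4% and 37.2% of all genes tested, or 53.6% for both together. In the authors' deposited table, 4 members had an adjusted p under 0.05 and were higher and 9 were lower. The shares of all genes called in that table were not computed, so these counts have no background.

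The split between higher and lower depends on the scaling. The deposited values are scaled to spike-in RNA, where the median gene lay at -0.10. A gene-based scaling of the libraries was tried too, which puts the median gene at 0.00. On it 12 members were called higher and 4 lower, with 25.3% and 20.9% of all genes called in these directions. The 4 that were lower on both scales were UBE2Q1, UBE2G2, UBE2Z and UBE2E3, and the 4 that rose on the spike-in scale were also called higher on the gene-based one. Without NMS-873 replicate 1, 5 members were higher and 9 lower, beside 2406 higher and 4182 lower of the 14889 genes tested. Across the 17 alternative settings, which include each library left out in turn, 7 of the 17 called members had the same call in every one: UBE2J1, UBE2W, UBE2B, UBE2Z, UBE2E3, UBE2G2 and UBE2Q1. The share of all called genes that kept their call in this way was not computed.

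**Figure D1:**
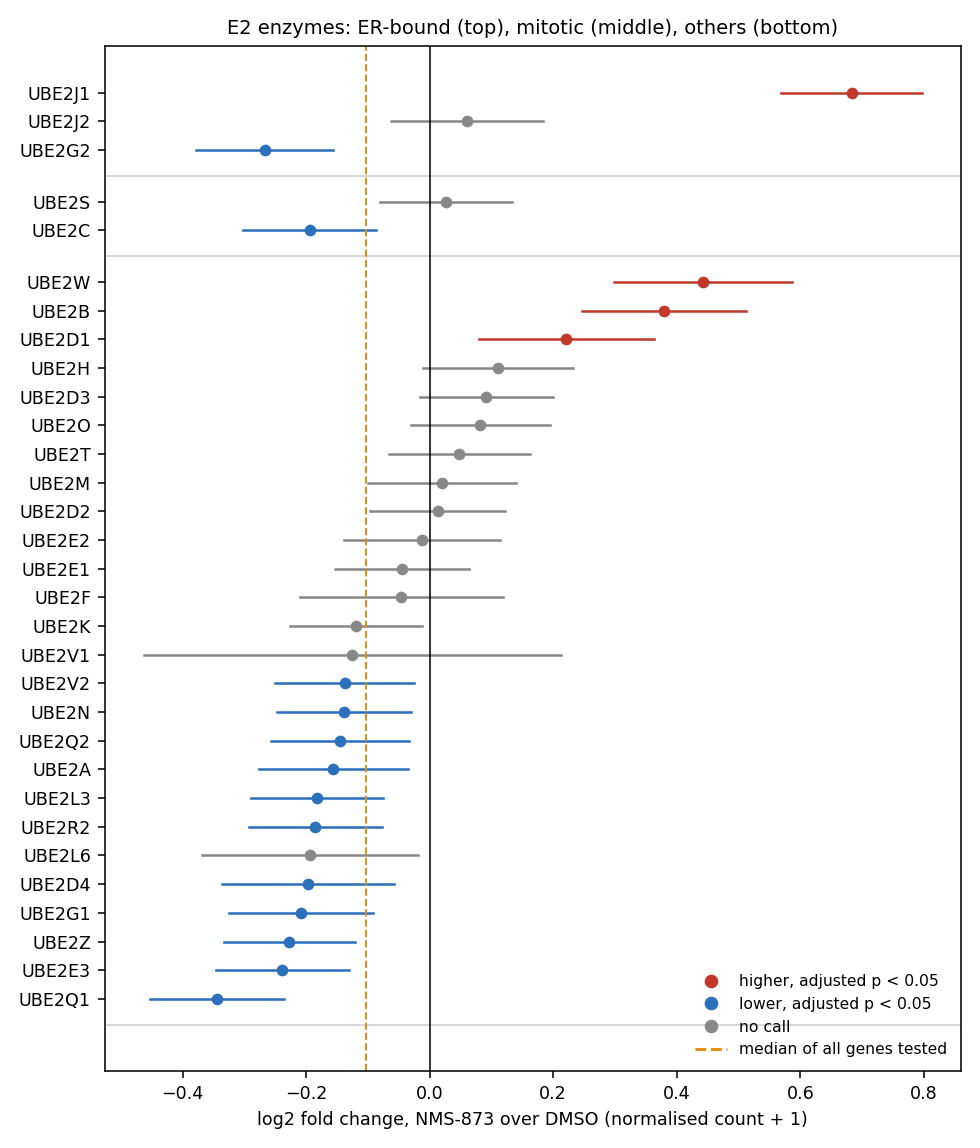
Log2 fold change of 31 of the 32 E2 transcripts, NMS-873 over DMSO, on the x axis (points) with its 95% confidence interval from limma (lines), ordered within the ER-bound, mitotic and other members. UBE2J1 stands apart at 0.68, while the dashed line marks the median of all genes tested at -0.10.

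The ER-bound members went different ways. UBE2J1 rose, UBE2J2 did not pass the test and UBE2G2 fell, so the 3 enzymes that share a compartment span nearly the whole range of the family, with log2 fold changes of 0.68, 0.06 and -0.27. UBE2J1 (ENSG00000198833.6; chromosome 6, 90036344 to 90062567, minus strand, hg19), a membrane-anchored partner of the ER ligase SYVN1, had 1515, 1705 and 1687 normalised counts in the NMS-873 libraries, against 981, 1033 and 1038 in the DMSO libraries. Every NMS-873 library lay above every DMSO library. Its mean was 1636 ± 105 with NMS-873 and 1017 ± 31.4 with DMSO, a 1.61-fold difference (log2 fold change 0.68, SE 0.0580, adjusted p = 2.82e-24), and it was called higher under all 17 alternatives, with log2 fold changes between 0.65 and 0.79.

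UBE2J2 (chromosome 1, 1189289 to 1209265, minus strand), the other tail-anchored E2, had 903, 861 and 902 normalised counts with NMS-873, against 832, 775 and 960 with DMSO. The groups overlapped, because DMSO replicate 3 was the highest of the 6 libraries and DMSO replicate 2 the lowest. The log2 fold change was 0.06 (95% confidence interval -0.06 to 0.18, adjusted p = 0.442). On the gene-based scale UBE2J2 was called higher, at 0.16 (adjusted p = 0.0158).

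UBE2G2 (chromosome 21, 46188955 to 46221934, minus strand), which builds degradation-type chains with ER ligases, had 1373, 1370.4 and 1462 normalised counts with NMS-873, against 1677, 1662 and 1721 with DMSO. All NMS-873 libraries were lower than all DMSO libraries. It was at 1402 ± 52.3 with NMS-873 and 1687 ± 30.4 with DMSO, 1.2-fold lower (log2 fold change -0.27, SE 0.0564, adjusted p = 1.97e-05), and -0.16 on the gene-based scale (adjusted p = 9.96e-04).

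Promoters of these 3 genes are shown because the transcripts of one compartment diverged and because ER stress factors bind known short elements. They are RefSeq sequences of build GRCh38.p14, from 250 bases before to 50 bases after each start, given 5′ to 3′ on the gene's own strand; 25 of the 32 members matched an entry. UBE2J1 is at chr6:89352673-89352972, minus strand, UBE2J2 at chr1:1273805-1274104, minus strand and UBE2G2 at chr21:44801771-44802070, minus strand. Capitals mark a match to one of the searched ER stress or E-box motifs.
UBE2J1: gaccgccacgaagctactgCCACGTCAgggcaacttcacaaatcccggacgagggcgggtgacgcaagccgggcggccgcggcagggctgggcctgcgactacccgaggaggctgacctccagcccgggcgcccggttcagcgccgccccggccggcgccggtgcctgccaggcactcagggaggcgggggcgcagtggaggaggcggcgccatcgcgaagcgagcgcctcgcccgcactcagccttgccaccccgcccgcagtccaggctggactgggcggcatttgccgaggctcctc
UBE2J2: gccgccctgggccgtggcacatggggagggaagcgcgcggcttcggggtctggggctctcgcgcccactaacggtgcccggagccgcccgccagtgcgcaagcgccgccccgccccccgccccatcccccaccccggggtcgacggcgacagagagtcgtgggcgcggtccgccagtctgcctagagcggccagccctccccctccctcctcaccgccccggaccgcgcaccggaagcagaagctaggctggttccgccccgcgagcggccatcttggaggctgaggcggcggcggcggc
UBE2G2: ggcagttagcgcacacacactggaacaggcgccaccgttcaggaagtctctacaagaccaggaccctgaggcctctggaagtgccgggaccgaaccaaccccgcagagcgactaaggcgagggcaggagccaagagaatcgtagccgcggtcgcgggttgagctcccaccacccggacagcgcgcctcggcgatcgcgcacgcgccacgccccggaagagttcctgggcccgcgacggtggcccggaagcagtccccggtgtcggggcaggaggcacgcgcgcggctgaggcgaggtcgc

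The capitals in UBE2J1 spell CCACGTCA, the reverse strand of TGACGTGG, the core of the unfolded protein response element (UPRE) that the factors XBP1 and ATF6 are known to bind. It covers bases 20 to 27 of the window and overlaps no other searched motif. TGACGTGG, searched on both strands, was present in the promoter of 1 of the 25 members, UBE2J1, and in 0.795% of 27305 promoters of the same length. The other motifs searched on both strands for these 3 genes were the ER stress response element ERSE, in 0.0806% of all promoters, its second form ERSE-II in 0.0549%, the C/EBP-ATF element TGATGNAA in 3.67%, the CCAAT box CCAAT in 35.7%, and the E-box CACGTG in 7.43%. Both ERSE forms contain a CCAAT box or its reverse complement. None of them has a match in the 3 windows shown, which says only that these letters are not in these windows. A match describes the letters and not a bound site.

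**Figure D2:**
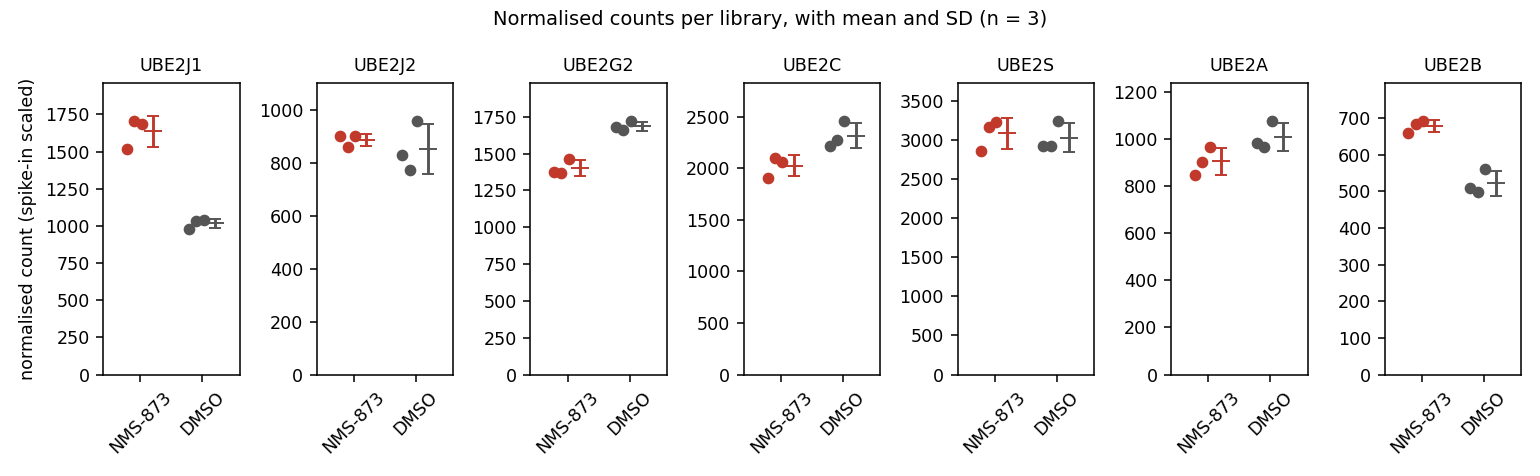
Normalised counts (y axes, each from 0) of 7 E2 transcripts in each library, NMS-873 in red and DMSO in grey, with mean and SD (n = 3) beside the points. UBE2J1 and UBE2B are higher in every NMS-873 library, UBE2G2, UBE2C and UBE2A are lower in every one, and UBE2J2 and UBE2S overlap.

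Among ubiquitin ligases and activators of the ER, 6 of 17 rose and 2 fell, where 14.9% of all genes tested were called higher and 33.0% lower; their median on the log2 scale was 0.04. With gene-based scaling 9 rose and 1 fell (median 0.14), where 25.3% of all genes were called higher and 20.9% lower. SYVN1, the ligase HRD1 of the main ER degradation complex, was at 3120 ± 177 normalised counts with NMS-873 and 801 ± 14.0 with DMSO, a 3.89-fold rise (adjusted p = 6.19e-96). RNF145, a sterol-regulated ligase, fell 1.65-fold (adjusted p = 1.43e-28), and MARCH6, a ligase that degrades among others a sterol enzyme, rose 1.22-fold (adjusted p = 1.16e-06). AUP1, which holds UBE2G2 at the membrane, did not pass the test, at 3992 ± 117 normalised counts with NMS-873 and 4220 ± 37.2 with DMSO (adjusted p = 0.212); it was picked here with its values in view.

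Of the mitotic members, UBE2C was called lower and UBE2S had no call on the spike-in scale. UBE2C (ENSG00000175063.12; chromosome 20, 44441215 to 44445596, plus strand) had 1910, 2102 and 2066 normalised counts with NMS-873, against 2218, 2278 and 2459 with DMSO. It was lower in all NMS-873 libraries than in any DMSO library. Its mean was 2026 ± 102 with NMS-873 and 2318 ± 125 with DMSO, 1.14-fold lower (log2 fold change -0.19, SE 0.0550, adjusted p = 0.00166). On the gene-based scale it was at -0.09 (adjusted p = 0.0600) and was not called, nor was it without the variance trend (adjusted p = 0.0614). In bulk libraries, fewer cells in mitosis and less of a transcript per cell cannot be told apart.

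UBE2S (chromosome 19, 55912652 to 55919145, minus strand) had 2859, 3164 and 3233 normalised counts with NMS-873, against 2925, 2920 and 3241 with DMSO. The groups overlapped, and the log2 fold change was 0.03 (95% confidence interval -0.08 to 0.13, adjusted p = 0.713). On the gene-based scale it was called higher, at 0.13 (adjusted p = 0.00622). Its count is less certain than most: the gene overlaps RPL28 on the opposite strand, which had a mean of 6102 normalised counts, and the strand setting of the counting was not given in the sources used here. A processed copy, UBE2SP1, took 3.05% to 4.29% as many normalised counts as UBE2S in the 6 libraries, so some reads may be split between the copies.

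Of 17 genes of the APC/C, a list of subunits and co-activators that also holds its inhibitor FBXO5, 9 fell and 1 rose (median -0.16 on the log2 scale), where 33.0% of all genes tested were called lower and 14.9% higher. With gene-based scaling 6 fell and 3 rose, where 20.9% of all genes were called lower and 25.3% higher. CDC20, the APC/C activator of early mitosis, was at 5604 ± 355 normalised counts with NMS-873 and 8055 ± 310 with DMSO, 1.44-fold lower (adjusted p = 3e-17). ANAPC13 fell 1.49-fold and ANAPC2, a subunit of the catalytic core, fell 1.31-fold. The member that rose was ANAPC10, a substrate-binding subunit, at 1.31-fold, named after its value was seen. All 18 of the other mitosis genes listed fell, with a median of -0.41 (15 of 18 on the gene-based scale); AURKA, PLK1 and BUB1B fell 1.93-fold, 1.57-fold and 1.6-fold. The log2 fold changes of UBE2C and UBE2S, at -0.19 and 0.03, were thus nearer 0 than that median. This difference was not tested, and UBE2C lay within the range of the list. CCNB2, CDK1 and PRC1, at -0.18, -0.17 and -0.14, fell less than UBE2C, and the rest of the 18 fell more.

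Among the other 27 members, 3 rose (11.1%) and 11 fell (40.7%), shares near those of all genes tested (14.9% higher and 33.0% lower). With gene-based scaling 9 of the 27 rose and 3 fell, where 25.3% and 20.9% of all genes were called. UBE2W, which attaches ubiquitin to the amino end of proteins, had 492, 526 and 568 normalised counts with NMS-873, against 401, 389 and 374 with DMSO. No library of one treatment reached the range of the other. This was 1.36-fold higher with NMS-873 (log2 fold change 0.44, SE 0.0732, adjusted p = 4.49e-08). UBE2D1, one of 4 closely related and broadly used E2 enzymes, had 491, 537 and 556 normalised counts with NMS-873, against 468, 429 and 461 with DMSO, a log2 fold change of 0.22 (SE 0.0716, adjusted p = 0.00640); without DMSO replicate 2 it was not called (adjusted p = 0.0529). The other UBE2D members had no call for a rise on the spike-in scale: UBE2D4 fell, at -0.20 (adjusted p = 0.0143), and UBE2D2 and UBE2D3 did not pass, at 0.01 (adjusted p = 0.864) and 0.09 (adjusted p = 0.160). On the gene-based scale UBE2D3 (0.20, adjusted p = 2.76e-05) and UBE2D2 (0.12, adjusted p = 0.0101) were called higher with UBE2D1, and UBE2D4 was not called (adjusted p = 0.176). UBE2D3 was also called higher with equal totals, after quantile normalisation and without NMS-873 replicate 1.

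UBE2B and UBE2A, the human forms of yeast Rad6, act with RAD18 in the tolerance of DNA damage and with RNF20 and RNF40 on histones. UBE2B (chromosome 5, 133706870 to 133727683, plus strand) had 660, 685 and 692 normalised counts with NMS-873, against 508, 497 and 562 with DMSO. It was higher in all NMS-873 libraries, 1.3-fold on the means (log2 fold change 0.38, SE 0.0678, adjusted p = 4.16e-07). UBE2A (chromosome X, 118708501 to 118718381, plus strand) had 849, 904 and 965 normalised counts with NMS-873, against 983, 968 and 1077 with DMSO. Here all NMS-873 libraries were lower (log2 fold change -0.16, SE 0.0611, adjusted p = 0.0268), but the highest NMS-873 library and the lowest DMSO library were close, and the gene was not called in 6 of the 17 alternatives. On the gene-based scale it was at -0.05 (adjusted p = 0.381).

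The largest fall of the family was that of UBE2Q1 (chromosome 1, 154521053 to 154531504, minus strand), which had 1786, 1928 and 2026 normalised counts with NMS-873, against 2460, 2341 and 2482 with DMSO. All NMS-873 libraries lay well below the DMSO range, 1.27-fold on the means (log2 fold change -0.34, SE 0.0550, adjusted p = 1.44e-08). Its relative UBE2Q2 fell less, at -0.14 (adjusted p = 0.0267), with groups that overlapped. UBE2E3 had 1883, 2052 and 2135 normalised counts with NMS-873, against 2416, 2377 and 2359 with DMSO (log2 fold change -0.24, SE 0.0548, adjusted p = 9.19e-05). The DMSO libraries were close to each other and above all NMS-873 libraries. UBE2E1 and UBE2E2, close relatives of UBE2E3, did not pass, at -0.04 (adjusted p = 0.526) and -0.01 (adjusted p = 0.888); both were above 0 on the gene-based scale, and not called there.

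UBE2Z, which takes ubiquitin from the second ubiquitin E1 enzyme, UBA6, had 3753, 3979 and 4102 normalised counts with NMS-873, against 4486, 4494 and 4876 with DMSO (log2 fold change -0.23, SE 0.0539, adjusted p = 1.55e-04). UBE2G1, a relative of UBE2G2 that works with cullin ligases, had 988, 1098 and 1062 with NMS-873, against 1275, 1183 and 1178 with DMSO (log2 fold change -0.21, SE 0.0592, adjusted p = 0.00180). In both genes every NMS-873 library was below every DMSO library. UBE2R2, a partner of cullin ligases, and UBE2L3, which serves HECT and RBR ligases, fell by 0.19 and by 0.18 on the log2 scale. On the gene-based scale UBE2G1, UBE2R2 and UBE2L3 were at -0.10, -0.08 and -0.08 and were not called (adjusted p = 0.0685, 0.0609 and 0.0728). UBE2R2 and UBE2L3 were also not called without the variance trend. UBE2N, which builds the signalling chains of DNA repair and inflammation, and its catalytically inactive partner UBE2V2 were both called, at -0.14 each. The falls of UBE2N, UBE2V2 and UBE2Q2 lay close to the median gene and were each lost in 8 or more of the 17 alternatives; on the gene-based scale the 3 were at -0.03, -0.03 and -0.04.

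The remaining members did not pass the test. Among them were UBE2K, UBE2H, UBE2O, UBE2T, the NEDD8 enzymes UBE2M and UBE2F, the ISG15 enzyme UBE2L6 and UBE2V1, with log2 fold changes between -0.19 for UBE2L6 and 0.11 for UBE2H. On the gene-based scale UBE2H (0.22, adjusted p = 4.03e-04), UBE2O (0.19, adjusted p = 7.54e-04) and UBE2T (0.15, adjusted p = 0.00307) were called higher. On the spike-in scale every NMS-873 library lay above every DMSO library for UBE2H, and below for UBE2K. UBE2K and UBE2L6 were each called lower in 4 of the 17 alternatives. UBE2M and UBE2F, which serve the same modifier, were at 0.02 (adjusted p = 0.808) and -0.05 (adjusted p = 0.677); on the gene-based scale UBE2M was called higher, at 0.12 (adjusted p = 0.0338), and UBE2F was at 0.06 and not called. UBE2V1 is uncertain: its gene overlaps TMEM189 on the same strand, at a mean of 504 normalised counts, and the readthrough gene TMEM189-UBE2V1 was listed at 0. The assignment of reads shared by overlapping genes was not given in the sources used here. Its level of 0.469 ± 0.0642 FPKM with NMS-873 and 0.510 ± 0.00411 FPKM with DMSO should be read with that limit.

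Ratios of related transcripts within a library compare 2 enzymes without any scaling between libraries, and gene length drops out of the difference between treatments. In 11 of the 16 pairs compared, the NMS-873 and DMSO libraries did not overlap, a count with no background of its own, since the share among other gene pairs was not computed and 53.6% of single genes do not overlap. Each of these gave the smallest p that 3 against 3 libraries allow (exact two-sided permutation test, p = 0.1, or 0.145 adjusted over the 16 pairs), so no pair can pass 0.05. The widest shift was between the ER-bound UBE2J1 and UBE2G2: their log2 ratio of normalised counts was 0.14, 0.32 and 0.21 with NMS-873, against -0.77, -0.69 and -0.73 with DMSO. UBE2J1 thus gained 1.93-fold on UBE2G2, and it gained 1.54-fold on UBE2J2. In the same measure UBE2J2 gained 1.25-fold on UBE2G2.

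UBE2A lost 1.45-fold on UBE2B, with log2 ratios of 0.36, 0.40 and 0.48 with NMS-873, against 0.95, 0.96 and 0.94 with DMSO. UBE2C lost 1.17-fold on UBE2S, at -0.58, -0.59 and -0.65 with NMS-873, against -0.40, -0.36 and -0.40 with DMSO. UBE2R2 lost 1.21-fold on CDC34, its cullin-ligase relative outside the name rule. UBE2D4 lost 1.22-fold on UBE2D3, UBE2Q1 lost 0.20 on the log2 scale on UBE2Q2, and UBE2D1, UBE2E1 and UBE2E2 gained on UBE2D3 and UBE2E3. The pairs that overlapped were UBE2D2 and UBE2D3, UBE2F and UBE2M, UBE2G1 and UBE2G2, UBE2L6 and UBE2L3, and UBE2V1 and UBE2V2, with differences between -0.08 and 0.06 on the log2 scale.

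**Figure D3:**
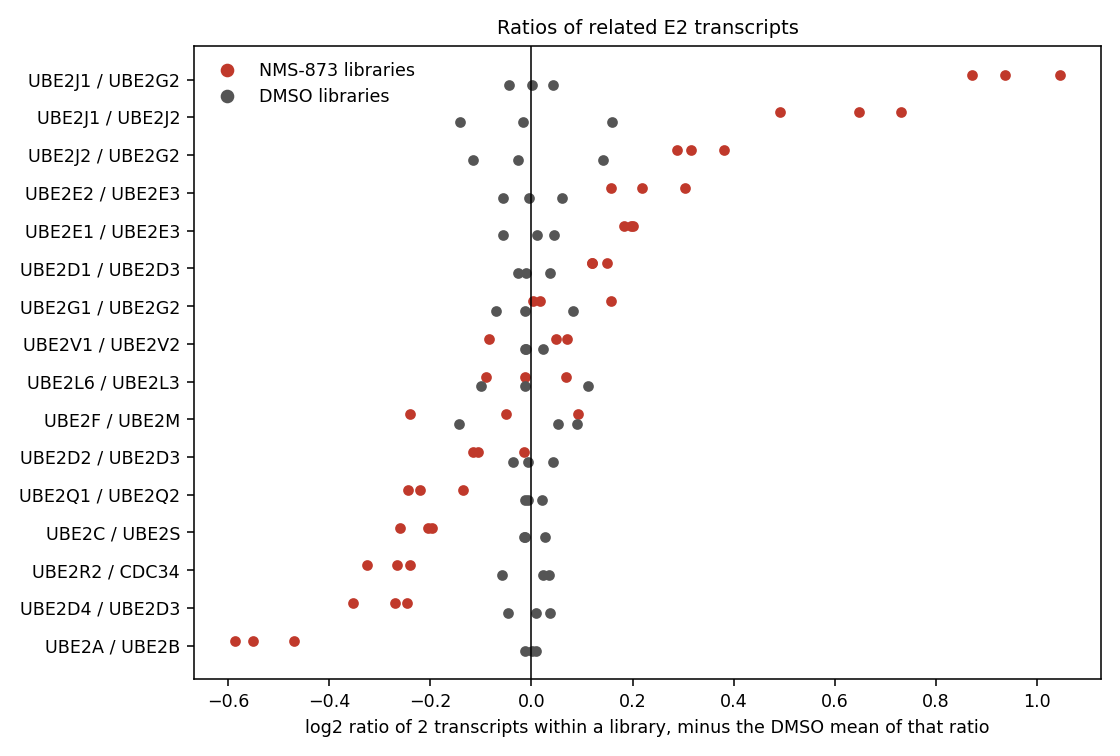
Log2 ratio of 2 related transcripts within each library, minus the DMSO mean of that ratio (x axis), for the 16 pairs; red points are NMS-873 libraries and grey points DMSO libraries. The UBE2J1 over UBE2G2 ratio moved by 0.95 and the UBE2A over UBE2B ratio by -0.54, and both lie clear of the DMSO libraries.

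Levels were compared between genes per length, in FPKM on the spike-in scale. UBE2S had the highest level of the family in all 6 libraries, at 113 ± 7.29 FPKM with NMS-873 and 111 ± 6.74 FPKM with DMSO. UBE2C, UBE2L3 and UBE2T, the E2 of the Fanconi anaemia pathway, followed; with DMSO they were at 64.7 ± 3.5, 59.8 ± 2.92 and 55.1 ± 2.6 FPKM, neighbours that differ by little more than their spread, and with NMS-873 at 56.5 ± 2.85, 52.7 ± 3.31 and 57.0 ± 3.07 FPKM. UBE2G2 and UBE2J1 were neighbours with DMSO, at 11.1 ± 0.201 and 10.9 ± 0.335 FPKM, not apart beyond their spread. With NMS-873 they were at 9.26 ± 0.345 and 17.4 ± 1.12 FPKM, so that UBE2J1 stood at place 16 of 32 with NMS-873, against place 20 with DMSO, and UBE2G2 at place 24 with NMS-873, against place 19 with DMSO. The summed level of the 32 members was 653, 702 and 719 FPKM in NMS-873 replicates 1 to 3, against 713, 701 and 753 FPKM in DMSO replicates 1 to 3, ranges that overlap.

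**Figure D4:**
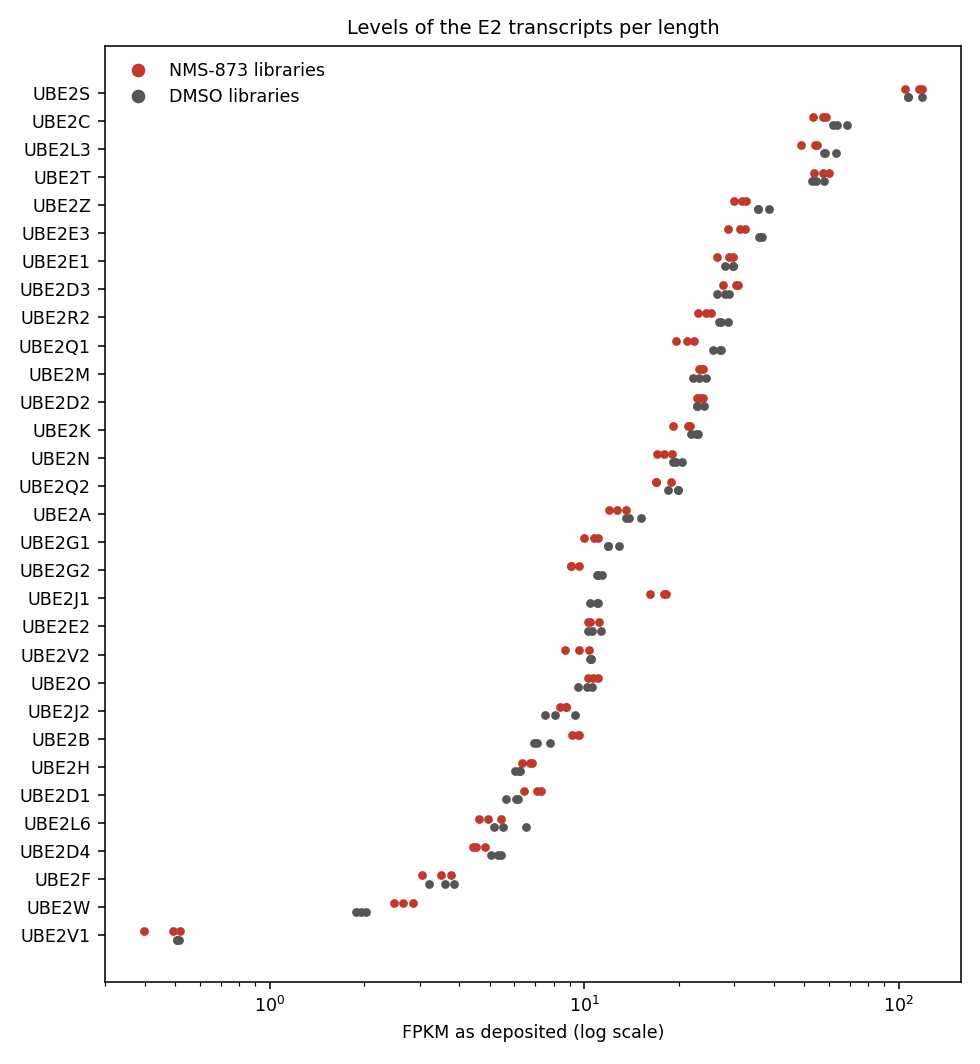
Level of 31 of the 32 E2 transcripts in FPKM (x axis, log scale) in each library, NMS-873 in red and DMSO in grey, ordered by the DMSO mean. UBE2S is highest in every library, and UBE2J1 is the member whose red points lie farthest to the right of its grey ones.

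The counts of the lists that follow stand beside 14.9% of all genes tested called higher and 33.0% lower on the spike-in scale, and 25.3% higher and 20.9% lower on the gene-based scale. Of 10 E1 enzymes, which activate ubiquitin and its relatives, 1 rose and 3 fell, shares near those of all genes, and on the gene-based scale 3 rose and 1 fell. SAE1 and UBA2, the subunits of the SUMO E1, went different ways: SAE1 fell by 0.21 on the log2 scale (adjusted p = 4.18e-04) and UBA2 rose 1.11-fold (adjusted p = 0.0123). UBA7, the ISG15 E1, was called lower, but its level was low and its libraries overlapped between treatments, at 16.1 ± 8.25 normalised counts with NMS-873 and 25.0 ± 2.48 with DMSO. Of 9 tested proteins with an E2 fold outside the name rule, 2 rose and 4 fell, and on the gene-based scale 3 rose and 2 fell. BIRC6, a large inhibitor of apoptosis that is itself an E2, fell 1.25-fold (adjusted p = 8.26e-08), UEVLD fell 1.18-fold, and UFC1, the E2 of the modifier UFM1, fell by 0.19 on the log2 scale with groups that overlapped.

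Of 26 tested partner ligases of the other E2 enzymes, 7 rose and 3 fell, where 14.9% and 33.0% of all genes were called in these directions, and on the gene-based scale 14 rose and 1 fell, where these shares were 25.3% and 20.9%. KCMF1 rose 1.25-fold (adjusted p = 8.17e-08), ARIH1, an RBR ligase that works with UBE2L3, rose 1.23-fold (adjusted p = 6.87e-06), and PIAS3, a SUMO ligase, fell 1.19-fold (adjusted p = 1.74e-04). RAD18, the partner of UBE2B and UBE2A, rose 1.14-fold (adjusted p = 0.00591; named after its value was seen). Among 12 genes of ubiquitin and ubiquitin-like modifiers, 3 rose and 5 fell, and on the gene-based scale 4 rose and 4 fell. UFM1, a modifier attached at the ER, rose 1.37-fold (adjusted p = 7.89e-13), and SUMO3 fell 1.22-fold (adjusted p = 1.06e-06). The median log2 fold changes of these 4 lists were -0.01, -0.19, 0.04 and -0.12, beside -0.10 over all genes tested.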

How the data were processed

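Libraries came from a stranded mRNA kit and shared 1 single-read flow cell, per the labels' protocols. The sample columns of the deposited table hold FPKM values, beside each gene's mean normalised count, a signal that the authors scaled by size factors, with the log2 fold change and adjusted p-value of the authors' comparison, per the file headers. Build hg19, featureCounts 1.5.1 and DESeq2 1.16.1 are named in the submitters' processing notes. Normalised counts were rebuilt as FPKM times the mean normalised count over the mean FPKM; multiplied by the implied size factors, 100% came within 0.001 of a whole read, and these factors matched those of a median of ratios computed from the spike-in rows. A minimum mean of 10 normalised counts left 14889 of 57820 genes, which were tested with limma 3.58.1 (R 4.3.3) on the log2(normalised count + 1) scale for treatment alone, with an intensity trend, two-sided tests and Benjamini-Hochberg adjustment over all genes; low genes' changes are understated by the added 1. The prior variance had 250.84 degrees of freedom, so each gene's spread comes mostly from genes of similar level. Without molecular identifiers, counting error understates the true error. No libraries of a treatment agreed within sampling noise. The fit was tested on simulated counts with the same dispersion for all genes and changes of 1.5-fold or more. That test does not cover the smaller changes of most members or a library that stands apart. A member and 2 listed genes are counted but not reported here singly. Members and lists were chosen with earlier results of these data known. Values per library are given for the ER-bound and mitotic members and for the up to 4 largest called rises and falls of the others without overlap of groups (3 rises qualified); list members are the 3 with the lowest adjusted p. UBE2A is shown as the relative of UBE2B. The alternatives were other count minimums, pseudocounts and scalings, log2(FPKM + 0.1), no variance trend, voom on the rebuilt reads, a replicate block, and each library left out.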

Additional observations from a re-analysis of the deposited data

How the results depend on the processing

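Over 17 alternatives and 31 members, direction and call were kept 448 times, a call was lost 42 and gained 22 times, and the direction turned 15 times, each time in a member without a call. With gene-based factors 3760 genes were higher and 3108 lower, and 12 and 4 members. After quantile normalisation 7 members were higher, beside 3083 of the 14889 genes tested. Without the variance trend 6 members were lower, beside 3706 of these genes. Leaving out 1 library gave 3 to 5 higher and 9 to 14 lower members. Over all genes tested it gave 1870 to 2406 higher and 4005 to 4957 lower. The counts of 9 lower came without NMS-873 replicate 1 or 2 or DMSO replicate 1 or 3. Directions that turned were those of UBE2E2 (0.092 with gene-based factors, 0.025 after quantile normalisation), UBE2E1 (0.059) and UBE2F (0.058) with gene-based factors, and UBE2F (0.053) and UBE2V1 (0.068) after quantile normalisation. With 1 library left out the log2 fold change ran from -0.0079 to 0.15 for UBE2J2, -0.0083 to 0.080 for UBE2S, -0.013 to 0.053 for UBE2M, -0.0017 to 0.037 for UBE2D2, -0.048 to 0.027 for UBE2E2, -0.079 to 0.0042 for UBE2E1 and -0.12 to 0.039 for UBE2F. Log2 ratio differences then ran from -0.14 to 0.021 for UBE2F over UBE2M, -0.061 to 0.045 for UBE2L6 over UBE2L3 and -0.017 to 0.060 for UBE2V1 over UBE2V2. The cause was not tested.

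In the lists, gene-based factors gave 3 higher and 1 lower E1 enzymes, 2 lower proteins with an E2 fold, 1 lower ER ligase, 3 higher APC/C genes, and 14 higher and 1 lower partner ligases. Without the variance trend these were 0 and 0 E1 enzymes, 0 higher proteins with an E2 fold, 4 higher partner ligases and 3 lower modifiers. Over all genes tested, gene-based factors gave 3760 higher and 3108 lower, and the fit without the variance trend 1801 and 3706. The main fit gave 2217 and 4910. With log2(FPKM + 0.1), 1 protein with an E2 fold and 4 partner ligases were higher, beside 1995 of all genes tested. With no count minimum 1 E1 enzyme was lower, beside 4622 of 27709 genes. Higher APC/C genes numbered 2 with a count minimum of 50, equal totals, quantile normalisation or the replicate block. In that order, 2112, 2472, 3083 and 2352 of all genes tested were higher. With 1 library left out, 0 to 1 E1 enzymes were higher and 1 to 2 lower, 0 to 2 proteins with an E2 fold were higher and 2 to 4 lower, 1 to 2 APC/C genes were higher, and 4 to 7 partner ligases were higher and 1 to 4 lower. All genes tested then ranged from 1870 to 2406 higher and from 4005 to 4957 lower.

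With the replicate block 2352 genes were higher and 5255 lower, and 4 and 15 members, UBE2K and UBE2L6 being added. Across genes, deviations of libraries with the same number correlated at 0.04, -0.03 and 0.04. A shift common to all genes of a library does not enter such a correlation. Whether the numbers pair the libraries was thus not settled. Depth limits UBE2V1, with 305 reads in all.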

Other observations

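Of 37 pseudogene rows named after an E2 enzyme, 8 had a read, and only UBE2SP1, at a mean of 115 normalised counts, exceeded the minimum used for the members. It had 87.2, 134 and 126 normalised counts with NMS-873, against 125, 106 and 111 with DMSO, and the groups overlapped. The next were UBE2FP1 at 11.1 and UBE2Q2P1 at 9.49.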
